A study of Rattus norvegicus with 16 samples.

Results

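Fructose was given on the normal-salt diet to one group of rats, and the kidney cortex of these rats was compared with that of rats on the same diet without fructose. The difference is taken between 8 of the 16 arrays of the series, chosen by their labels, with 1 array per rat. The FNS group (fructose, normal salt; rats 5 to 8) drank water holding 20% fructose over 7 days, and the CNS group (control, normal salt; rats 1 to 4) had water. All were male Sprague Dawley rats labelled as 7 weeks old and fed standard chow. The other 8 arrays are from rats on a diet with 4% NaCl. They are the FHS group (20% fructose, rats 13 to 16) and the CHS group (no fructose, rats 9 to 12). They enter here as a second look at fructose, and in the spread from which the limma standard errors and p-values were estimated. The chows came from different makers and differed in protein, carbohydrate and energy as well as salt. Salt therefore cannot be told apart from the rest of the chow. Sprague Dawley rats are outbred. Cages held a pair of rats each and no cage is labelled, so the p-values treat rats as independent. The sample was a slice of whole superficial cortex, in which fewer cells of a type and less RNA per cell cannot be told apart.

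Fructose is taken up by proximal tubule cells through apical transporters, is phosphorylated by ketohexokinase, and is split into triose phosphates that can leave as glucose, lactate or fat. The proximal tubule is the only part of the nephron that makes glucose. Its first segments, S1 and S2, fill the outer cortex, while the straight S3 segment lies deeper and has its own set of transporters.

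The array reports 1 value per TranscriptClusterID, a group of probes along a transcript, as log2 of a robust multi-array average (RMA) signal. A difference of 1 on this scale is a doubling. Differences are FNS minus CNS, and the fit was limma over all 16 arrays. Standard errors and p-values from it pool the spread within all groups, FHS and CHS included. Where the groups differ in spread, they can be smaller or larger than FNS and CNS rats alone would give. No TranscriptClusterID passed an adjusted p under 0.05, which is 0 of 36685 (0.0%), and the lowest adjusted p was 0.732 from limma. At an unadjusted p under 0.05 there were 1521 (4.15%), and the per-gene test of the study's methods gave 1887 before adjustment and 0 after. Of the 18166 genes with a symbol, taken at their brightest TranscriptClusterID, 239 (1.32%) were higher and 360 (1.98%) lower in FNS rats at an unadjusted p under 0.05. In 259 (1.43%) every FNS rat lay above every CNS rat, and in 295 (1.62%) every FNS rat lay below. The middle of the distribution was narrow, with 5th and 95th percentiles of −0.24 and 0.21 and a median standard error of 0.13. Only 13 genes (0.0716%) differed by more than 1 and 130 (0.716%) by more than 0.5. Differences were above 0 in 49.2% of genes and below 0 in 50.8%, the background for the lists that follow. Every gene described below therefore failed the correction, and its adjusted p was 1.0 from limma unless another value is given.

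The 8 arrays correlated with each other at 0.981 to 0.990, and the median was 0.986 both within and between the groups. Array medians were 5.27 to 5.33 in FNS rats and 5.26 to 5.29 in CNS rats. A pair of rats stood apart. CNS rat 2 lay at 49.2 on the first principal component of the 8 arrays (22.9% of the variance), against −24.9 to 16.6 for the others, and FNS rat 7 lay at −38.7 on the second (14.8%), against −13.2 to 24.6. Genes of the S3 segment separated them from the rest of their groups. Slc7a13, an amino acid transporter of S3, was 10.92, 11.45, 12.77 and 10.17 in FNS rats 5 to 8, against 12.74, 9.65, 12.91 and 12.98 in CNS rats 1 to 4. Thus rat 7 was at the level of 3 of the CNS rats, and rat 2 was below every FNS rat. Over the 8 S3 markers the median deviation from the CNS mean was −0.41, −0.37, 0.73 and −0.73 in FNS rats 5 to 8, against 0.34, −0.86, 0.42 and 0.43 in CNS rats 1 to 4. The summed signal of these markers ranged from 3216 to 15074 in FNS rats and from 2574 to 15872 in CNS rats, so the groups overlapped across a wide range. Values without these rats, and with the S3 median of each array as a covariate, are given beside many of the results that they move; both settings were added after the data were seen.

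**Figure D1:**
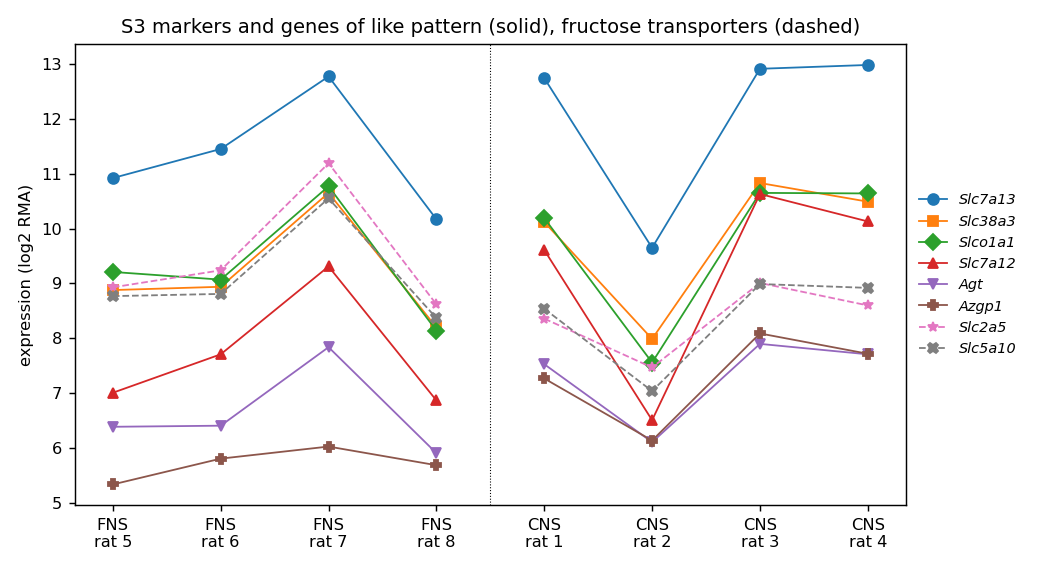
Log2 RMA level (vertical axis) of S3 markers and genes of like pattern (solid lines) and of the fructose transporters Slc2a5 and Slc5a10 (dashed lines) in each of the 8 rats, FNS rats 5 to 8 on the left and CNS rats 1 to 4 on the right. Lines join the values of a gene within a group and imply no order of rats; rat 7 is the highest FNS rat and rat 2 the lowest CNS rat for each gene, and for Azgp1 rat 7, at 6.03, is still below every CNS rat.

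The transporters of fructose uptake averaged higher in FNS rats, and the size of the difference depended on rats 7 and 2. Slc2a5, the facilitative fructose transporter GLUT5, was 8.93, 9.24, 11.19 and 8.62 in FNS rats 5 to 8, against 8.36, 7.47, 9.01 and 8.6 in CNS rats 1 to 4. The means were 9.49 ± 1.16 in FNS rats and 8.36 ± 0.65 in CNS rats (SD, n = 4 each), a 2.19-fold difference on the linear scale. The log2 difference was 1.13 with a standard error of 0.53 (unadjusted p = 0.0498 from limma). FNS rats 5, 6 and 8 and CNS rats 1, 3 and 4 overlapped, and without rats 2 and 7 the difference was 0.27. With the S3 covariate it was 1.4 (unadjusted p = 0.00013, adjusted p = 0.561 from limma). Slc5a10, the sodium-coupled fructose and mannose transporter SGLT5, was 8.77, 8.81, 10.55 and 8.37 in the FNS rats, against 8.54, 7.04, 8.99 and 8.92 in the CNS rats. Its difference was 0.75 (standard error 0.47), −0.17 without rats 2 and 7, and 0.98 with the S3 covariate. Neither transporter separated the groups, and the part of the S3 content in this was not tested beyond these settings.

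The promoter of Slc2a5 is shown because the gene had the largest difference of the fructose list. RefSeq places it on GRCr8 at chr5:165865929-165866228, plus strand, from 250 bases before to 50 bases after the start of the gene. It is written 5′ to 3′ in lower case, and no searched motif was found in it.
Slc2a5: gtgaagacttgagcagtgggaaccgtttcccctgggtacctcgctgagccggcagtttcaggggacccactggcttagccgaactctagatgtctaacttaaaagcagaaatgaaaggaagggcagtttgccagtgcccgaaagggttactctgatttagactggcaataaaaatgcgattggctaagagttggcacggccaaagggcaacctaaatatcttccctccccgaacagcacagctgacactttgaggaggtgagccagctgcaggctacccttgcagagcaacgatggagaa
The motifs searched in this window, on both strands, were TTACGTCA and TGACGTCA, forms of the cyclic AMP response element, the E-box CACGTG, and the carbohydrate response element, to which the sugar-sensing factor ChREBP binds. The carbohydrate response element was searched as CACGGG and CCCGTG with 5 bases between them, and in a looser form, CACGNG and CNCGNG with the same spacing, which contains every match of the strict one.

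Of the enzymes after uptake, Khk and Tkfc had smaller differences that lay mostly in rat 7. Ketohexokinase (Khk), which phosphorylates fructose at its first carbon, was 10.66, 10.49, 11.35 and 10.51 in FNS rats 5 to 8, against 10.42, 10.43, 10.56 and 10.40 in CNS rats 1 to 4. Triokinase (Tkfc), which phosphorylates the glyceraldehyde released in fructose breakdown, was 10.61, 10.36, 11.48 and 10.37 in the FNS rats, against 10.37, 10.31, 10.43 and 10.39 in the CNS rats. Rat 7 was above the next FNS rat by 0.69 for Khk and 0.87 for Tkfc, while the other 3 FNS rats lay within 0.25 of each other for both genes. The difference was 0.30 for Khk and 0.33 for Tkfc, and without rat 7 it was 0.10 and 0.07. Of the 9 measured genes of fructose uptake and breakdown 6 were above 0, with a median of 0.15 against 0.00 over all genes. Slc2a2, the basolateral GLUT2, had 0.15 (0.09 without rat 7), and the lowest was Akr1b1, the aldose reductase that makes sorbitol, with −0.19. Rat 7 was the highest of the 8 rats for 6 of the 9 genes (66.7%), against 14.7% of all genes.

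Among genes of gluconeogenesis, Pck1 depended less on rats 7 and 2. Pck1, the cytosolic phosphoenolpyruvate carboxykinase and the main regulated step of the pathway, was 12.22, 12.50, 12.59 and 12.04 in FNS rats 5 to 8, against 11.63, 11.47, 11.61 and 12.26 in CNS rats 1 to 4. It averaged 12.34 ± 0.25 in FNS rats and 11.74 ± 0.35 in CNS rats (SD, n = 4 each), 1.51-fold higher, with a log2 difference of 0.59 (standard error 0.16, unadjusted p = 0.00204 from limma). CNS rat 4 lay inside the FNS range and the other 3 CNS rats lay below it. The difference stayed between 0.50 and 0.77 with any 1 of the 8 rats left out, and it was 0.42 without rats 2 and 7. The catalytic subunit of glucose-6-phosphatase (G6pc), which releases free glucose, was 11.89, 12.16, 12.35 and 11.92 in the FNS rats, against 11.72, 11.55, 11.77 and 11.59 in the CNS rats, so that every FNS rat was above every CNS rat. Its difference was 0.42 (standard error 0.20, unadjusted p = 0.0576 from limma), 0.33 without rat 7 and 0.29 without rats 2 and 7. The array's own annotation pairs this TranscriptClusterID with more than 1 gene, and the name G6pc is the study's.

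The mitochondrial dicarboxylate carrier Slc25a10, which moves malate for glucose synthesis, was 11.78, 11.86, 11.71 and 11.55 in FNS rats 5 to 8, against 11.49, 11.35, 11.42 and 11.62 in CNS rats 1 to 4, a difference of 0.26 (standard error 0.10, unadjusted p = 0.0181 from limma). Pyruvate carboxylase (Pc), which makes oxaloacetate, had 0.27, but 11.01 in rat 7 against 10.33 to 10.48 in the other FNS rats. Without rat 7 it had 0.11. Fructose-1,6-bisphosphatase (Fbp1) had 0.14, the glucose-6-phosphate carrier Slc37a4 had 0.16 and phosphoglucose isomerase (Gpi) had 0.19, or 0.10 without rat 7. Across the pathway 10 of 14 genes were above 0, with a median of 0.09, or 0.04 without rat 7. Rat 7 was the highest of all FNS and CNS rats for 6 of the 14 (42.9%), against 14.7% of all genes. An unadjusted p under 0.05 was reached by 2, both higher in FNS rats, against 1.32% of all genes that were higher. The lowest was cytosolic malate dehydrogenase (Mdh1) with −0.17, or −0.11 without rat 7.

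The Pck1 promoter is shown for its cyclic AMP response element, the site through which glucagon and catecholamines are known to raise this gene. It lies at chr3:182348322-182348621 on GRCr8, plus strand (RefSeq), and the 8 capitals, 93 to 86 bases before the gene's start, mark TTACGTCA.
Pck1: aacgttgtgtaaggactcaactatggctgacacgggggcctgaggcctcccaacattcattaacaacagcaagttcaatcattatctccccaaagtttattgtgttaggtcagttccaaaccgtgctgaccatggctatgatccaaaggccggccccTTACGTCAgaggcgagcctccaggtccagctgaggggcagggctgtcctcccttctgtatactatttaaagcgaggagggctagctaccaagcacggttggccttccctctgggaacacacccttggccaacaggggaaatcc
This form was found in 270 of 33469 rat promoters (0.807%), and the form TGACGTCA in 612 (1.83%), which does not include Pck1. A match is a description of the sequence and was not measured as binding.

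**Figure D2:**
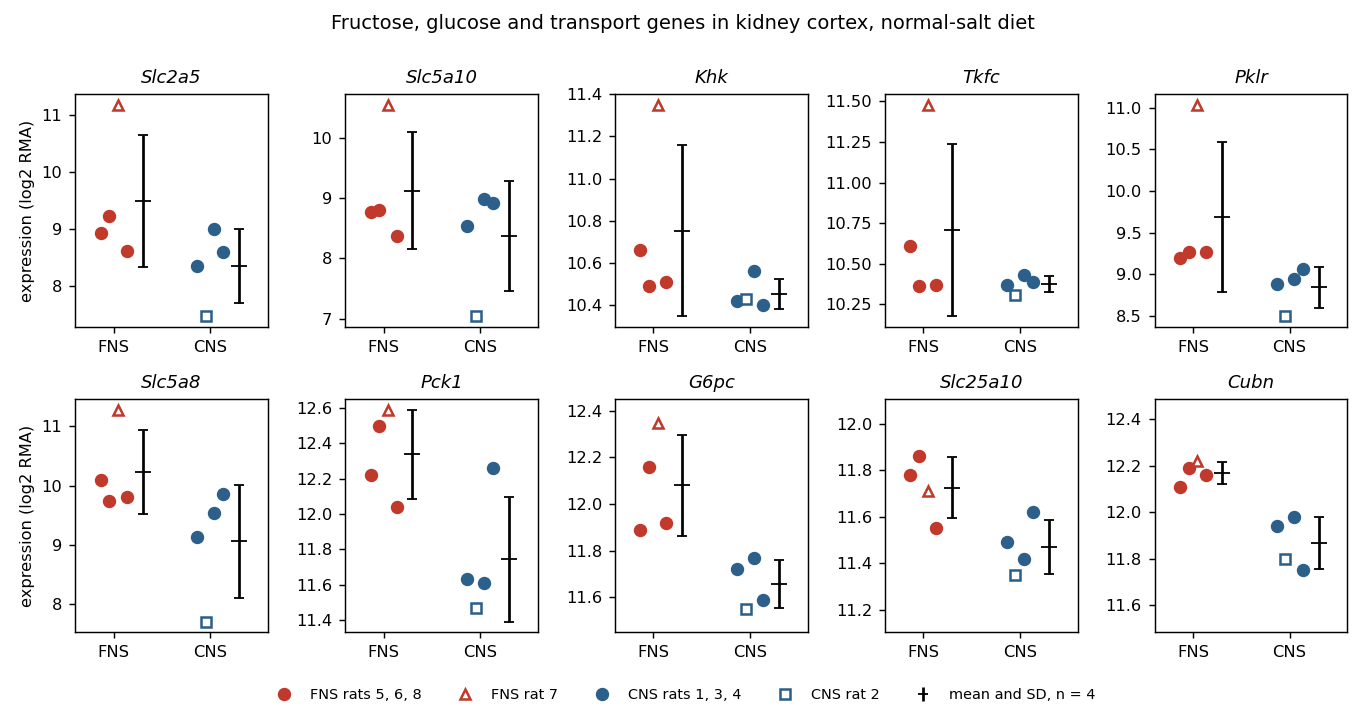
Log2 RMA level (vertical axes, each panel on its own scale) of 10 genes of fructose, glucose and proximal transport in FNS rats (red) and CNS rats (blue), with the mean and SD of 4 rats in black. The open triangle is FNS rat 7, the highest of the 8 rats in every panel but Slc25a10, and the open square is CNS rat 2; G6pc, Pklr and Cubn are the panels in which the groups do not overlap.

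Among genes known to respond to sugar through ChREBP, a pair stood above the rest of their list. Liver and kidney pyruvate kinase (Pklr), the last step of glycolysis, was 9.19, 9.27, 11.04 and 9.26 in FNS rats 5 to 8, against 8.88, 8.49, 8.94 and 9.06 in CNS rats 1 to 4. Every FNS rat was above every CNS rat, although the lowest FNS rat exceeded the highest CNS rat by only 0.13 and rat 7 stood 1.76 above the next FNS rat. The difference was 0.85 (standard error 0.36, unadjusted p = 0.0305 from limma), 0.40 without rat 7 and 0.28 without rats 2 and 7. Tm6sf2, a gene of triglyceride export, was 8.19, 8.43, 9.26 and 8.38 in the FNS rats, against 8.33, 7.63, 7.81 and 7.87 in the CNS rats, with a difference of 0.66 (standard error 0.20, unadjusted p = 0.00467 from limma) and 0.43 without rat 7. Glycerol-3-phosphate dehydrogenase (Gpd1), which supplies the glycerol backbone of fat, had 0.37 and the desaturase Scd had 0.28, and without rat 7 they had 0.21 and 0.15. The malic enzyme Me1 was lowest of the list with −0.31 (standard error 0.24), −0.19 without rat 3 and −0.57 without rats 2 and 7. In all 9 of 16 genes were above 0 with a median of 0.06, which became −0.03 without rat 7. In glycolysis 9 of 14 were above 0, with a median of 0.04, and without rat 7 it was 7 of 14, with 0.01. Rat 7 was the highest of all FNS and CNS rats for 9 of the 14 (64.3%), against 14.7% of all genes. Pfkfb4, which sets the level of the activator fructose-2,6-bisphosphate, had 0.33 (standard error 0.11), and 0.23 without rat 7.

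The Pklr promoter is shown because it holds a classic carbohydrate response element. It lies at chr2:176841014-176841313 on GRCr8, plus strand (RefSeq), and the 17 capitals, 168 to 152 bases before the gene's start, mark the strict match with its spacer.
Pklr: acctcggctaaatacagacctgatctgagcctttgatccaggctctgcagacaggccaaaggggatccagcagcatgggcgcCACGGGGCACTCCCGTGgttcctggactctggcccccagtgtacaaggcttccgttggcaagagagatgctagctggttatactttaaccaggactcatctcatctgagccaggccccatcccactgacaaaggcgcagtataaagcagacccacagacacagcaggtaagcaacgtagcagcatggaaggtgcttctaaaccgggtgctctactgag
The strict form was found in 1 of 33469 rat promoters (0.00299%), this one. The looser form was in 111 (0.332%), among them Psat1, the phosphoserine aminotransferase of serine synthesis. Psat1 was 11.65, 11.04, 11.27 and 11.14 in the FNS rats, against 10.93, 10.98, 10.99 and 10.91 in the CNS rats. Its groups did not overlap, with a difference of 0.32, and 0.20 without rat 5, the highest. On the high-salt diet (FHS minus CHS) Psat1 had the opposite sign, with −0.23.

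Genes of fatty acid oxidation, most of them targets of the nuclear receptor PPARα, leaned upward. Of 29 measured 23 were above 0, with a median of 0.11. An unadjusted p under 0.05 was reached by 3, all higher in FNS rats, against 1.32% of all genes that were higher. Ppara itself was 9.20, 9.75, 9.31 and 9.36 in the FNS rats, against 9.25, 8.68, 8.74 and 9.30 in the CNS rats, a difference of 0.41 (standard error 0.18). The carnitine transporter OCTN2 (Slc22a5) was 11.27, 11.33, 11.26 and 11.28 in FNS rats 5 to 8, against 10.87, 10.96, 11.06 and 11.17 in CNS rats 1 to 4. The FNS rats lay within 0.06 of each other and above all CNS rats, with a difference of 0.27 (standard error 0.10, unadjusted p = 0.0157 from limma). The mitochondrial thioesterase Acot2 was 9.19, 9.15, 9.44 and 9.05 in the FNS rats, against 8.88, 8.48, 8.91 and 8.94 in the CNS rats, a difference of 0.40 with no overlap, and 0.22 without rats 2 and 7. The hydratase Echs1 went the other way, with every FNS rat below every CNS rat and a difference of −0.14. The median of this list was 0.14 without rats 2 and 7.

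Markers of the S1 and S2 segments were slightly higher in FNS rats, in 10 of 11 genes, with a median of 0.12. For 4 of the 11 every FNS rat was above every CNS rat, against 1.43% of all genes. Cubilin (Cubn), an endocytic receptor for filtered proteins, was 12.11, 12.19, 12.22 and 12.16 in FNS rats 5 to 8, against 11.94, 11.80, 11.98 and 11.75 in CNS rats 1 to 4, a difference of 0.30 (standard error 0.10). The organic anion transporter OAT1 (Slc22a6) had 0.17, the phosphate transporter NaPi-IIa (Slc34a1) 0.16 and the creatine-synthesis enzyme Gatm 0.25. Over the 8 rats the list's median deviation was 0.18, 0.18, 0.08 and 0.17 in FNS rats, against 0.03, −0.04, 0.02 and 0.01 in CNS rats. The summed signal was 61854 to 65047 in FNS rats and 57764 to 60033 in CNS rats. With the S3 covariate the median became 0.06. Among sodium, phosphate and glucose transporters 10 of 13 were above 0, with a median of 0.09. The sodium-proton exchanger NHE3 (Slc9a3), the main apical route of sodium entry, was 10.04, 9.94, 10.13 and 10.05 in the FNS rats, against 9.85, 9.62, 9.87 and 9.99 in the CNS rats, a difference of 0.21 (standard error 0.10), and 0.11 without rats 2 and 7.

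Slc5a8, a sodium-coupled transporter of lactate and other monocarboxylates, had the largest positive difference of any transport gene examined. It was 10.09, 9.75, 11.28 and 9.81 in FNS rats 5 to 8, against 9.13, 7.71, 9.54 and 9.86 in CNS rats 1 to 4. Rat 7 stood above all others and rat 2 far below all others, while the remaining rats overlapped. The difference was 1.17 (standard error 0.39, unadjusted p = 0.00879 from limma), 0.72 without rat 2, 0.82 without rat 7 and 0.37 without both. That standard error pools all groups, and the SD was 0.72 in FNS, 0.95 in CNS, 0.31 in FHS and 0.14 in CHS rats. Prostasin (Prss8), a protease that activates the epithelial sodium channel, was narrower, at 11.69, 11.65, 11.67 and 11.58 in the FNS rats, against 11.44, 11.43, 11.57 and 11.44 in the CNS rats. It did not overlap, with a difference of 0.18. The water channel Aqp2 of collecting duct principal cells was 9.70, 9.56, 9.52 and 9.47 in the FNS rats, against 9.85, 9.95, 9.93 and 9.85 in the CNS rats, also without overlap, with a difference of −0.33 (standard error 0.14). Aqp2 was the lowest of 11 collecting duct markers, of which 5 were above and 6 below 0, with a median of −0.01.

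The 8 S3 markers had a median difference of −0.25. Of them 5 averaged lower and 3 averaged higher in FNS rats, and the highest value was 0.17 for the anion transporter Slc22a7. Rat 2 had the lowest S3 median deviation of the CNS rats and rat 7 the highest of the FNS rats. Leaving both out therefore lowers these differences by the choice of rats, here and for genes of like pattern, and gives no separate support. Without rats 2 and 7 all 8 were below 0, with a median of −0.72. The most negative markers, and a pair of genes of like pattern outside the list, had large errors. Slc7a12 had −1.5 (standard error 0.89), Slc7a13 −0.74 (0.88), the glutamine transporter Slc38a3 −0.69 (0.62) and angiotensinogen (Agt) −0.68 (0.51). Within a group these genes spanned between 1.93 and 2.60 log2 units in FNS rats and between 1.79 and 4.12 in CNS rats. Without rats 2 and 7 the differences were −2.93, −2.03, −1.80 and −1.48. Over all 16 rats 40 genes correlated with Slc7a13 above 0.9, led by Hnmt (r = 0.99), which breaks down histamine, and Gclc (r = 0.98), the rate-limiting enzyme of glutathione synthesis. This is a description across rats of all groups.

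A different gene with a large negative difference did separate the groups. Azgp1, which encodes zinc-alpha-2-glycoprotein, a lipid-mobilizing factor, was 5.34, 5.81, 6.03 and 5.69 in FNS rats 5 to 8, against 7.27, 6.14, 8.09 and 7.72 in CNS rats 1 to 4. Every FNS rat lay below every CNS rat, the difference was −1.59 (standard error 0.36, unadjusted p = 0.000425 from limma), and it was −2.09 without rats 2 and 7 and −1.45 with the S3 covariate. The glucuronosyltransferase Ugt2b7 was 5.66, 4.72, 5.46 and 4.4 in the FNS rats, against 6.67, 5.38, 6.27 and 6.89 in the CNS rats, a difference of −1.24 (standard error 0.32), with rats 5 and 7 inside the CNS range. Proline dehydrogenase (Prodh) had −0.41 (standard error 0.18). Ornithine aminotransferase (Oat) had −0.46 (0.22), and −0.80 without rats 2 and 7. The kynurenine aminotransferase Aadat had −0.53 (0.46), with −0.93 without rat 2, −1.17 without rats 2 and 7, −0.29 without rat 8 and −0.29 with the S3 covariate. Betaine-homocysteine methyltransferase (Bhmt), which remethylates homocysteine, had 0.38 without overlap, and 0.24 without rat 7. Of 24 genes of the Nrf2 and glutathione list 19 were below 0, with a median of −0.09, and −0.03 with the S3 covariate. The lowest was the quinone reductase Nqo1, at 5.59, 5.40, 5.92 and 5.65 in the FNS rats, against 5.98, 6.07, 5.89 and 6.47 in the CNS rats.

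Genes of the extracellular matrix and of the cells that make it mostly averaged lower in FNS rats. Collagen III (Col3a1), a fibrillar collagen of the interstitium, was 8.47, 8.48, 8.57 and 8.48 in FNS rats 5 to 8, against 9.06, 9.16, 9.10 and 8.91 in CNS rats 1 to 4. The FNS rats lay within 0.11 of each other, and the nearest CNS rat was 0.33 above them. The difference was −0.56 (standard error 0.11, unadjusted p = 0.000144 and adjusted p = 0.753 from limma), and it stayed between −0.61 and −0.52 with any 1 rat left out. Col15a1, a basement membrane collagen, was 6.15, 6.17, 6.23 and 6.05 in the FNS rats, against 6.34, 6.62, 7.02 and 6.60 in the CNS rats, a difference of −0.50 (standard error 0.16). Elastin (Eln) had −0.35 and the gelatinase Mmp2 −0.30, both without overlap. Of 26 matrix genes 24 were below 0, with a median of −0.14, and for 6 every FNS rat was below every CNS rat, against 1.62% of all genes. Periostin (Postn) was the highest of the list, with 0.33 (standard error 0.23), and 0.21 without rat 6.

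All 8 markers of fibroblasts and smooth muscle were below 0, with a median of −0.27. Smooth muscle myosin (Myh11) was 7.01, 6.91, 6.96 and 7.01 in FNS rats 5 to 8, against 7.25, 7.35, 7.10 and 7.31 in CNS rats 1 to 4, a difference of −0.28 (standard error 0.11), and desmin (Des) had −0.29 with FNS rat 8 inside the CNS range. The list's median deviation was −0.29, −0.31, −0.22 and −0.24 in FNS rats, against 0.00, 0.10, 0.00 and −0.04 in CNS rats, so the groups were apart. Its summed signal was 2880 to 3588 in FNS rats and 3425 to 4081 in CNS rats. Col3a1 belongs to this list and to the matrix list. The endothelial gene Ehd3, of glomerular capillaries, was 9.43, 9.92, 9.35 and 10.05 in the FNS rats, against 10.07, 10.27, 10.04 and 10.18 in the CNS rats, and 7 of 8 endothelial markers were below 0 with a median of −0.10. Markers of podocytes had a median of −0.05, and whether fewer of these cells were sampled was not tested.

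Markers of macrophages and antigen-presenting cells were below 0 in 14 of 17 genes, with a median of −0.19. The class II histocompatibility gene RT1-Ba was 7.86, 7.76, 7.44 and 7.61 in FNS rats 5 to 8, against 8.02, 8.38, 8.05 and 8.15 in CNS rats 1 to 4, a difference of −0.49 (standard error 0.16, unadjusted p = 0.00876 from limma) without overlap. RT1-Da had −0.35 and the macrophage growth factor receptor Csf1r −0.21, while the scavenger receptor Cd163 had 0.17. The list's median was −0.09 without CNS rat 2 and −0.10 without FNS rat 7. The summed signal was 7470 to 8550 in FNS rats and 7980 to 10168 in CNS rats.

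Cell cycle genes were below 0 in 28 of 28, with a median of −0.18. An unadjusted p under 0.05 was reached by 5 of them, against 1.98% of all genes that were lower. The shift was carried by 3 FNS rats. The list's median deviation was −0.30, −0.29, −0.37 and 0.15 in FNS rats 5 to 8, against −0.10, −0.06, 0.14 and −0.02 in CNS rats 1 to 4. Cenpf, a centromere protein of dividing cells, was 6.71, 6.83, 6.51 and 7.42 in FNS rats 5 to 8, against 7.18, 7.30, 7.25 and 7.39 in CNS rats 1 to 4. The mitotic checkpoint kinase Bub1 had −0.42 (standard error 0.16), between −0.56 without rat 8 and −0.35 without rat 6. The mitotic kinesin Kif23 had −0.36, between −0.49 without rat 8 and −0.25 without rat 7. Rat 8 was the highest FNS rat for both genes, so leaving it out lowers these differences by the choice of rat. Topoisomerase 2-alpha (Top2a), which untangles replicated DNA, had −0.31 (standard error 0.13).

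**Figure D3:**
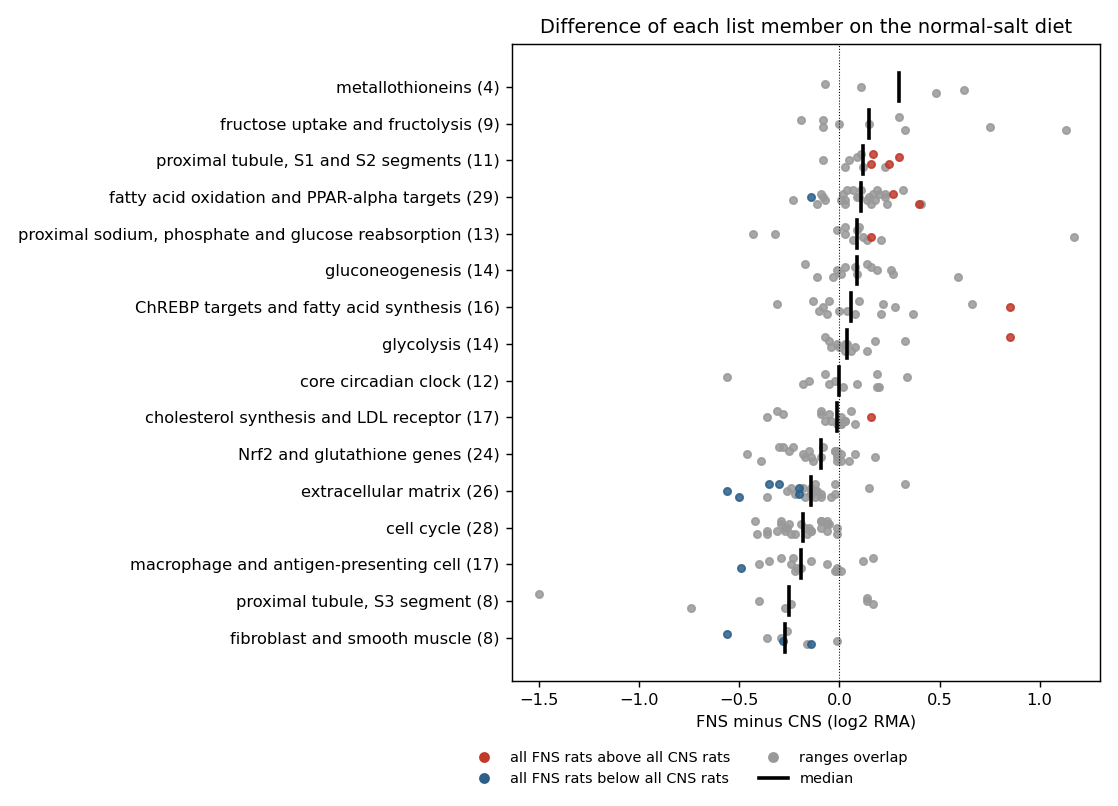
Log2 difference, FNS minus CNS (horizontal axis), of every measured member of 16 gene lists, with the number of members in parentheses, ordered by the median (black bar). Red points are genes with every FNS rat above every CNS rat, blue points the reverse and grey points overlap; the cell cycle list lies wholly below 0 and the fibroblast and smooth muscle list has the lowest median, −0.27.

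Clock genes did not shift together. Of 12 core clock genes 6 were above and 6 below 0. Per1 was 5.73, 6.11, 5.87 and 5.88 in the FNS rats, against 6.07, 7.28, 6.19 and 6.30 in the CNS rats, a difference of −0.56 that became −0.29 without rat 2. Bhlhe41 (DEC2), a repressor of the clock, was 5.06, 5.22, 4.90 and 4.92 in FNS rats 5 to 8, against 5.67, 5.50, 5.36 and 5.86 in CNS rats 1 to 4, with no overlap and a difference of −0.57 (standard error 0.13, unadjusted p = 0.000524 from limma). The clock repressor Nr1d1 and the output factor Dbp spread over more than 1.2 log2 units within each group, with differences of 0.34 (standard error 0.29; 0.06 without rat 3) and −0.08 (0.34; 0.22 without rat 4 and 0.27 without rat 7). The metallothioneins Mt1f and Mt1, which bind zinc, had 0.62 and 0.48, with CNS rats 1 and 3 low and CNS rat 2 as the highest of all 8 rats, with 0.99 and 0.78 without rat 2 and 0.34 and 0.19 without rat 3.

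Genes of the renin-angiotensin system were split. The receptor Mas1, which binds angiotensin 1-7, was 4.52, 4.66, 4.56 and 4.70 in the FNS rats, against 5.01, 4.81, 5.04 and 4.91 in the CNS rats, with no overlap and a difference of −0.33 (standard error 0.10, unadjusted p = 0.00557 from limma). These values were dim, all below the array medians. Agtrap, which binds the type 1 angiotensin receptor and takes it inside the cell, was higher without overlap, with 0.24, and the type 2 receptor Agtr2 had −0.26 at a low level near 3, and −0.16 without rats 2 and 7. Uroguanylin (Guca2b), a peptide that promotes sodium excretion, was 8.78, 8.80, 8.44 and 8.25 in the FNS rats, against 7.92, 7.81, 8.12 and 8.22 in the CNS rats, with a difference of 0.55 (standard error 0.16). In cholesterol synthesis 8 of 17 genes were above 0, with a median of −0.01, and lanosterol synthase (Lss) had −0.36, and −0.17 without rat 8, and the reductase Tm7sf2 had −0.31. Without rat 7 the median of that list was −0.13.

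Several genes of low p were outside these lists. Spata22, known from meiosis, was 8.10, 7.32, 7.69 and 7.41 in FNS rats 5 to 8, against 8.85, 8.22, 8.96 and 8.83 in CNS rats 1 to 4, a difference of −1.09 (standard error 0.20, unadjusted p = 6.48e-05 and adjusted p = 0.732 from limma). The olfactory receptor Or1e31 shared that adjusted p, with −0.64 at a dim level of 2.29 to 2.79 in FNS rats and 3.12 to 3.21 in CNS rats. Gpm6a, a membrane glycoprotein first known from neurons, was 7.69, 8.30, 7.93 and 7.94 in the FNS rats, against 8.89, 8.71, 9.30 and 9.0 in the CNS rats, which gave −1.01 with a standard error of 0.21 (limma's adjusted p = 0.868). Tent5a, a poly(A) polymerase, had −0.43 and the kinetochore gene Cenpq −0.58, both without overlap. Cenpq was dim, with means of 4.54 in FNS rats and 5.12 in CNS rats.

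On the higher side, the laminin chain Lama1, a basement membrane component, was 7.43, 7.34, 7.29 and 7.30 in FNS rats 5 to 8, against 6.94, 6.94, 6.77 and 6.46 in CNS rats 1 to 4. The FNS rats lay within 0.14 of each other and above all CNS rats, a difference of 0.56 (standard error 0.15, unadjusted p = 0.00185 from limma). Sorcs2, a sorting receptor, was 8.33, 8.02, 8.18 and 8.27 in the FNS rats, against 6.94, 7.56, 7.28 and 7.60 in the CNS rats, a difference of 0.86 (standard error 0.28). Fetub and Hrg, plasma proteins of the cystatin superfamily that the liver secretes, had 1.00 (standard error 0.39) and 0.97 (0.46), again without overlap. The ribosomal RNA methyltransferase Mrm3 had 0.35, the semaphorin Sema4b 0.26 and the ligand Wnt3a 0.42, and Arhgdib, a regulator of small GTPases, had 0.53 with CNS rat 3 inside the FNS range. Wnt3a was dim, with means of 4.81 in FNS rats and 4.4 in CNS rats.

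**Figure D4:**
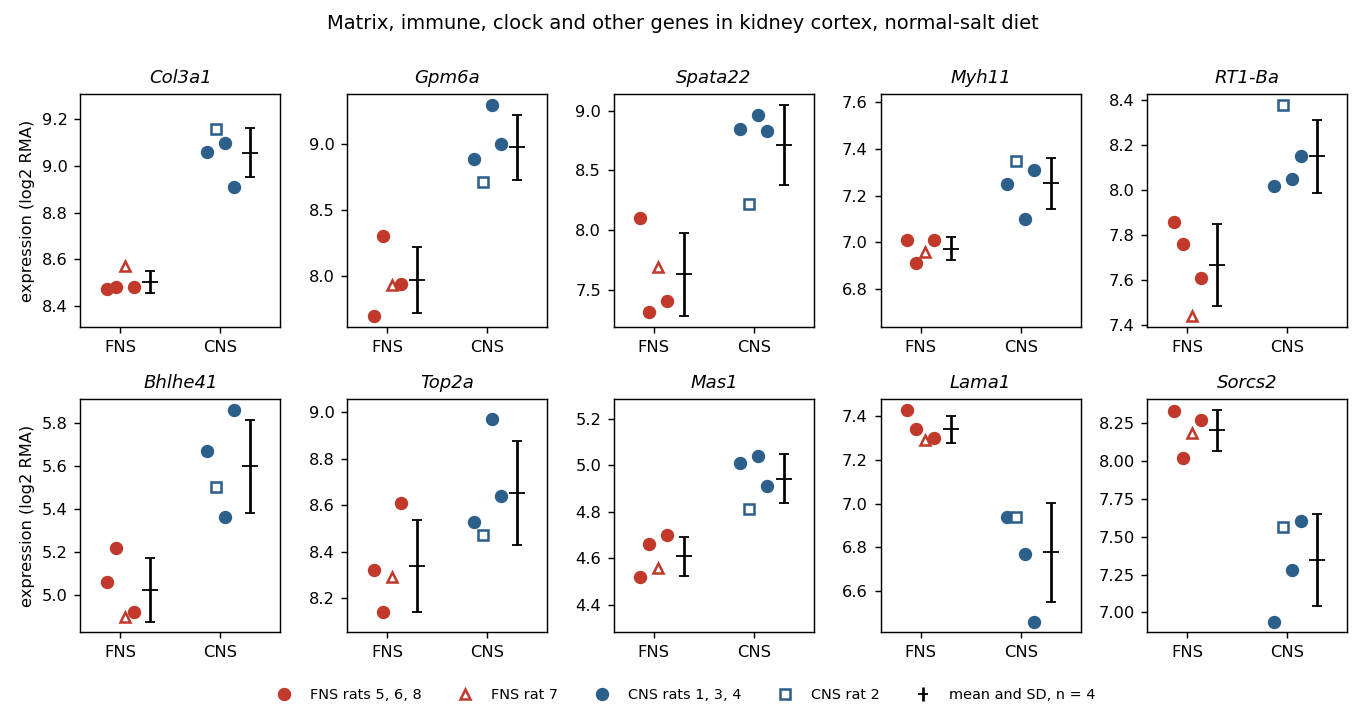
Log2 RMA level (vertical axes, each panel on its own scale) of 10 matrix, immune, clock and other genes in FNS rats (red) and CNS rats (blue), with the mean and SD of 4 rats in black. The groups do not overlap in any panel except Top2a, where FNS rat 8 at 8.61 lies among the CNS rats; the open triangle is FNS rat 7 and the open square CNS rat 2.

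A pair of microRNA genes was among the higher genes of lowest p. Mir3065 was 4.16, 4.41, 3.51 and 4.31 in the FNS rats, against 3.31, 3.27, 3.38 and 3.63 in the CNS rats, a difference of 0.70 (standard error 0.16, unadjusted p = 0.000594 from limma), with rat 7 inside the CNS range. Its values were dim, all below the array medians. Mir365b was 5.93, 5.86, 5.74 and 5.95 in the FNS rats, against 5.48, 5.47, 5.31 and 5.22 in the CNS rats, a difference of 0.50 (standard error 0.15) without overlap. The probes lie in the precursor genes, and no mature microRNA was measured. The mature sequences from RefSeq are shown with the seed, bases 2 to 8, in capitals. On GRCr8 the Mir3065 pair is at chr10:105796345-105796364 and chr10:105796384-105796407, and the Mir365b pair at chr10:65184231-65184247 and chr10:65184271-65184292, all on the plus strand.
rno-miR-3065-5p: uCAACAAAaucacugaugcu
rno-miR-3065-3p: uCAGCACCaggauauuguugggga
rno-miR-365-5p: gAGGGACUuucaggggc
rno-miR-365-3p: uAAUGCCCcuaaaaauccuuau
The 4 seeds differ from each other.

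Several of the largest differences rested on 1 or 2 rats. Mmp20, an enamel protease, had −1.66, since CNS rats 2 and 3 were at 7.57 and 7.25 and the other 6 rats between 4.00 and 4.24, and −1.07 without rat 2. The olfactory receptor Or5b95 had 1.43 because rat 5 was at 10.32, against 4.79 to 5.52 in the other FNS rats and 4.28 to 5.81 in CNS rats, and 0.12 without rat 5. Akr1b8, an aldo-keto reductase, had −1.33 and the phosphatase Dusp15 −1.24, with rat 6 at 4.19 and 3.73. Without rat 6 these were −0.59 and −0.24. Anxa13, an annexin of epithelial cells, had −1.22 with the S3 pattern, rat 7 at 6.56 and rat 2 at 4.11, and −2.44 without both.

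The same genes were measured on the high-salt diet, which was a different chow, in rats that share no array with FNS and CNS. The difference between the diets was tested directly and no TranscriptClusterID passed, 0 of 36685 (0.0%), with 2235 (6.09%) at an unadjusted p under 0.05 and a lowest adjusted p of 0.599 from limma. Over all 18166 genes 52.2% had the same sign on both diets. In the fructose list Slc2a2 had 0.15 on normal salt and −0.08 on high salt, Slc2a7, a transporter of glucose and fructose, −0.08 and 0.15, and Akr1b1 −0.19 and 0.05. Slc2a5 had 1.13 on normal salt and 1.35 on high salt, Slc5a10 0.75 and 1.73, Khk 0.30 and 0.35, Tkfc 0.33 and 0.56, and Pklr 0.85 and 1.21. Pck1 had 0.59 and 0.39, Tm6sf2 0.66 and 0.92, and Guca2b 0.55 and 0.62. The cell cycle list had a median of −0.18 on normal salt and −0.53 on high salt, with 27 of 28 genes below 0 there.

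Other genes had opposite signs, or little difference on high salt. Gpm6a had −1.01 on normal salt and 0.49 on high salt, which differ by −1.5 with a standard error of 0.29 (limma's unadjusted p = 0.000114, adjusted p = 0.599). Spata22 had −1.09 and 0.18 (high-salt standard error 0.20), Bhlhe41 −0.57 and 0.19 (0.13), and Myh11 −0.28 and 0.29 (0.11). RT1-Ba had −0.49 and 0.36 (0.16), and Mas1 −0.33 and 0.14 (0.10). The macrophage list had a median of −0.19 on normal salt and 0.16 on high salt, and the fibroblast list −0.27 and 0.00. The S3 markers had −0.25 and 0.34, and S1 and S2 markers 0.12 and −0.04. Sorcs2 had 0.86 and −0.35 (high-salt standard error 0.28) and Lama1 0.56 and −0.02 (0.15). Among the genes of lowest p for this contrast Rhoq, a small GTPase of glucose transporter traffic, had 0.10 on normal salt and −0.58 on high salt, and the fractalkine receptor Cx3cr1 had −0.14 and 0.47. The adjusted p of every gene given here for the difference between the diets was at least 0.599 from limma.

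**Figure D5:**
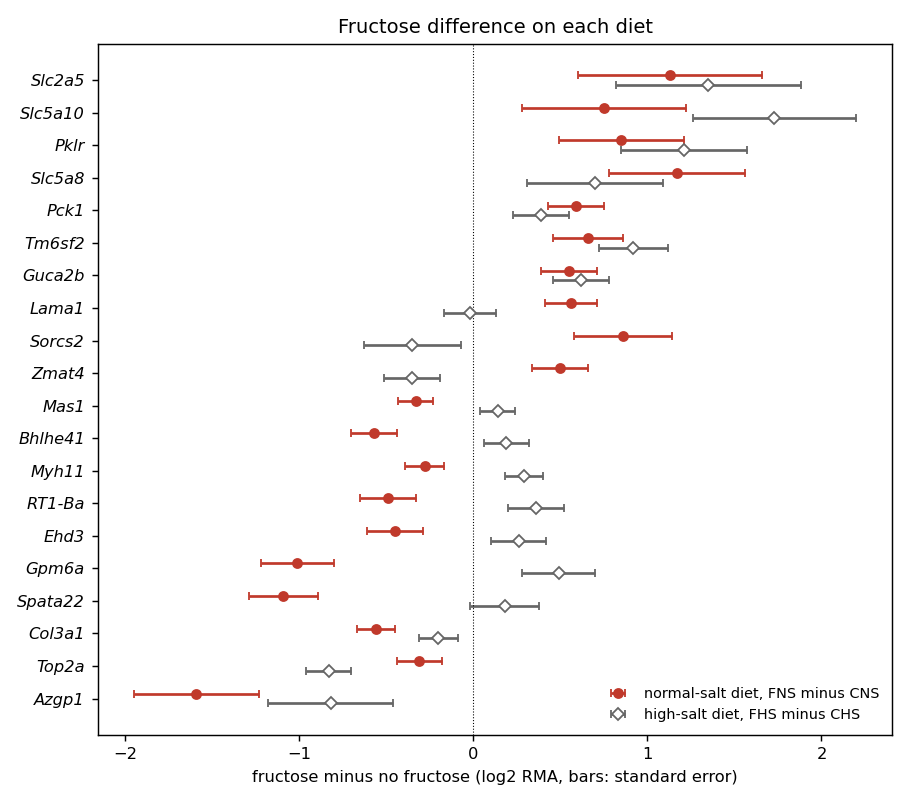
Log2 difference between rats with and without fructose (horizontal axis, bars are standard errors from limma) for 20 genes on the normal-salt diet (FNS minus CNS, filled circles) and on the high-salt diet (FHS minus CHS, open diamonds). Slc2a5, Slc5a10, Pklr, Pck1, Tm6sf2 and Guca2b lie right of 0 on both diets, while Gpm6a and Spata22 lie left of 0 on normal salt and right of it on high salt.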

How the data were processed

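Total RNA of superficial kidney cortex was hybridized to Affymetrix RaGene 2.0 ST arrays, 1 per rat, 4 rats in each of 4 groups assigned by the labels. The authors summarized and normalized the arrays by RMA in Affymetrix Expression Console, and the deposited values are log2 expression per TranscriptClusterID (1.76 to 13.8). No detection call comes with them, so dim TranscriptClusterIDs were tested with the others. The number of rats limits the precision, and the median standard error was 0.14, 0.13 and 0.11 in genes of low, middle and high level.

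Group means were estimated for all 36685 TranscriptClusterIDs over 16 arrays by limma (version 3.58.1, R version 4.3.3) with empirical Bayes moderation. Contrasts were FNS minus CNS, FHS minus CHS and the difference of these. Tests were two-sided, with Benjamini-Hochberg adjustment over all TranscriptClusterIDs. The methods' ANOVA, run on the same values, was an alternative, as were other scalings, filters, variance models and leaving out each rat. Symbols came from GEO's platform annotation: 18511 TranscriptClusterIDs have 1 symbol, 575 have several and 17599 have none. A symbol was represented by its TranscriptClusterID of highest mean. A further 29 list genes, such as G6pc, were named from the study's gene tables and kept out of list counts.

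The 41 gene lists name 641 genes, of which 555 were measured. The lists and the genes described were chosen with earlier results of these data known, so a list's counts are a description. Genes were named by smallest p, largest difference, the leading members of each list, all members of the fructose and gluconeogenesis lists, and smallest p for the difference between the diets; not every such gene is described, some are not reported here, and others, such as those named for their likeness to Slc7a13, were chosen after their values were seen. Promoter and microRNA sequences are from RefSeq, build GRCr8.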

Additional observations from a re-analysis of the deposited data

Results flagged for a closer look

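With 4 rats a group, 234 sets of 4 values (the genes and lists described, FNS and CNS apart) were examined for a single rat far from the other 3, by Dixon's ratio of the gap to the range at its critical value for 4 samples. It marked 26 of them (11.1%). Chance marks about 1 in 20 of independent, unselected sets, but these sets share rats and genes and were partly chosen by their values. Whether 26 is more than chance gives was not tested. FNS rat 7 was marked high for Pklr (11.04), Gpd1 (10.92), Me1 (10.56), Anxa13 (6.56) and Col3a1 (8.57), and for the glycolysis list (0.24, median deviation from the CNS mean) and the Nrf2 and glutathione list (0.09), and low for the S1 and S2 list (0.08). CNS rat 2 was marked low for Acot2 (8.48), Slc7a13 (9.65), Slco1a1 (7.56), Aadat (11.15), Cenpq (4.80) and the S3 list (−0.86), and high for the gluconeogenesis list (0.01), whose CNS range was very narrow. No other rat was marked as often as either of these.

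The other marked values were single. They were CNS rat 1 for Slc2a2 (10.98) and Or1e31 (3.12), CNS rat 3 for Kif23 (7.02), Agtrap (9.28), Prss8 (11.57) and Arhgdib (9.10), CNS rat 4 for Cd163 (4.22), FNS rat 5 for Or5b95 (10.32), FNS rat 6 for Akr1b8 (4.19) and the core clock list (0.01), and FNS rat 8 for the cell cycle list (0.15). The marks for the core clock and gluconeogenesis lists rest on rounded deviations, at which the other rats of the group were tied, at −0.02 and −0.01.

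Between the diets, 11 of 18166 genes had fructose-fed rats wholly above their controls on one diet and wholly below them on the other. On normal salt alone 1.43% of genes were wholly above and 1.62% wholly below. Whether 11 is more than chance gives was not tested. Zbtb5 and Zmat4, zinc finger genes, are the members of the smallest-p genes among the 11, with differences between the diets of 0.47 and 0.85 (unadjusted p = 0.00136 and 0.002, both with an adjusted p of 0.761 from limma). Both were higher on normal salt and lower on high salt.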

How the results depend on the processing

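No TranscriptClusterID passed under any of 20 other settings, and the lowest adjusted p ranged from 0.0951 (without rat 7) to 1.0 from limma. The number at an unadjusted p under 0.05 was 1521, and 676 to 2541 elsewhere: 676 for the brighter TranscriptClusterIDs, 755 with the fit repeated on 1 row per symbol (599 of the same rows in the fit of all) and 774 on named TranscriptClusterIDs, 2541 with array weights, and 1328 to 1816 with 1 rat left out. Of those, 43.9% were higher in FNS rats, but 31.9% after array median centring. For the difference between the diets the counts were 2235, and 1096, 1048 and 1105 in those 3 smaller tables; 0 passed in each setting run. Of 2008 values of 101 genes none passed and 11 turned sign. These were Slc5a10 (−0.17 without rats 2 and 7), Sord (−0.01 after quantile normalization, −0.02 after centring, −0.01 with the S3 covariate, −0.03 to 0.03 with 1 rat left out) and Dbp (0.06 with array weights, 0.26 without rats 2 and 7, −0.41 to 0.27 with 1 rat left out). Of 813 list medians 792 moved by less than the spread between rats. No paired analysis was possible because the replicate numbers are rat numbers that no 2 groups share.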

Other observations

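Interferon response genes averaged higher in FNS rats in 16 of 21, with a median of 0.08, and in 21 of 21 on the high-salt diet, with a median of 0.29. The list's median deviation from the CNS mean was 0.04, 0.38, 0.19 and −0.11 in FNS rats 5 to 8, against −0.01, −0.03, 0.02 and 0.04 in CNS rats 1 to 4, so that FNS rat 6 was high and FNS rat 8 was the lowest of all 8 rats. The deubiquitinase Usp18, which dampens interferon signalling, had 0.37 (standard error 0.33) and Irf7, a transcription factor of the response, had 0.34 (0.28), while Gbp2, a guanylate-binding protein, had −0.26 (0.12) without overlap between the groups. None of these genes had an unadjusted p under 0.05 from limma except Gbp2 (0.0444), and the difference between the diets was not tested for the list.

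Markers of the distal convoluted and connecting tubule were above 0 in 7 of 8, with a median of 0.16 on normal salt and −0.06 on high salt. The sodium-chloride cotransporter Slc12a3, the thiazide target, had 0.20 (standard error 0.10). FNS rat 7 was low for this list, at −0.13, against 0.17, 0.23 and 0.33 in the other FNS rats and −0.16 to 0.10 in CNS rats. Subunits of oxidative phosphorylation lay close to 0, between −0.13 for Ndufa1 and 0.13 for Ndufb8, and lymphocyte markers had a median of −0.02.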
